A study of Mus musculus with 8 samples.

Results

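The control libraries are the RNA-Seq libraries of primordial follicles from control mice on postnatal day 3, and they were chosen by their sample labels. They are 4 of the 8 samples of the series. The other 4 samples came from offspring of a line founded with mitochondrial supplementation at fertilisation, and no level is compared between the groups here. All samples have the strain background C57Bl/6 x CBA and the tissue label ovarian. Per the study's methods, ovary pieces were digested with Liberase DH, follicles were picked with stripper tips, and total RNA was extracted from the follicles of an ovary with the PicoPure kit. The cDNA was amplified with the Trio RNA-Seq kit, rRNA was removed from the libraries, and they were sequenced on an Illumina HiSeq. The study had a further control library, which it set aside before testing and which is not in the deposited table.

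A primordial follicle is an oocyte arrested in the prophase of meiosis and enclosed by a single layer of flat pregranulosa cells, and it is the resting form from which follicles are recruited through reproductive life. The oocyte stores transcripts of zona pellucida proteins, germ cell RNA-binding proteins and maternal effect genes under a small set of oocyte transcription factors, while TSC and FOXO3 signalling holds it dormant. Around the follicles of a newborn ovary lie stromal fibroblasts, vessels, blood cells and the surface epithelium.

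The question asked of these libraries is what the baseline transcriptome holds and how far it is shared between replicates. Values of the libraries are given in the order of control replicates 1, 2, 3 and 4 throughout. The libraries held 17658559, 13917412, 18219362 and 10370045 counts. The rRNA genes Rnr1 and Rnr2 of the mitochondrion and Rn45s and Rn18s of the nucleus took 23.0, 41.3, 40.6 and 75.3% of them, a mean of 45.0 ± 21.9% (SD, n = 4). The 95% Wilson intervals of these shares ran from 22.99 to 23.03% in replicate 1 and from 75.29 to 75.34% in replicate 4. Replicate 4 stood highest, through the mitochondrial pair, which took 19.4, 37.8, 36.6 and 74.0%, while the nuclear pair took 3.62, 3.50, 3.93 and 1.30% and was lowest in replicate 4. The assignment of these genes to mitochondrion and nucleus rests on their names alone. After removal of the 4 rRNA genes, 13594922, 8168025, 10829304 and 2559876 counts were left, and all levels below are CPM on this library size. A level equal to 3 counts, the limit that a count of 0 allows, was 0.221, 0.367, 0.277 and 1.17 CPM. The intervals and the limits reflect counting error alone, and amplification can add spread that they leave out.

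**Figure D1:**
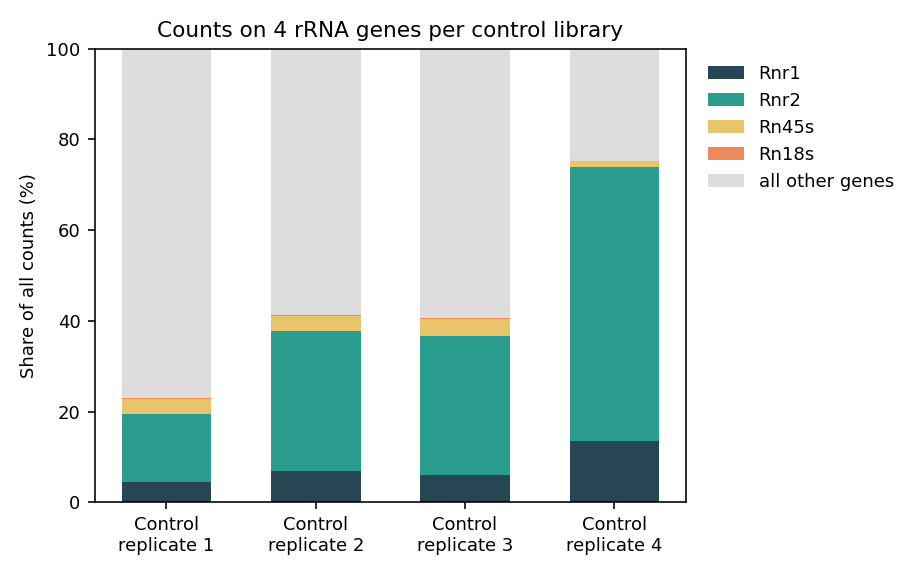
Stacked bars give the percentage of all counts on each rRNA gene and on all other genes in each control library. The rRNA share was 23.0% in replicate 1 and 75.3% in replicate 4, and Rnr2 held the most counts of the 4 rRNA genes in each library.

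Checked against marker genes of the labelled cells, the libraries did not carry oocyte markers alike. The 5 oocyte lists together, 67 genes for zona proteins, oocyte transcription factors, germ cell RNA binding, maternal effects and meiosis, summed to 17792, 1202, 1102 and 4388 CPM. The sum in replicate 1 was 14.8 times that in replicate 2, 16.2 times that in replicate 3 and 4.05 times that in replicate 4. The erythroid list ran the other way and summed to 47.7, 9195, 6147 and 166 CPM, so replicates 2 and 3 carried high levels of red cell genes and low levels of oocyte genes. These libraries go against the label of primordial follicles to that extent, and the set is called the control libraries here. Some of the results are therefore also given without replicates 2 and 3, and without replicates 1 and 4. In bulk RNA, fewer cells of a type and less RNA per cell cannot be told apart, and this holds for every level below.

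The relations between libraries showed the same division. Across 14728 genes with a mean of at least 1 CPM, Pearson's r of log2(CPM + 1) was 0.943 for replicates 2 and 3. For the other pairs it was 0.700 for 1 and 2, 0.724 for 1 and 3, 0.766 for 1 and 4, 0.709 for 2 and 4 and 0.758 for 3 and 4. Such a correlation describes the genes, which cannot stand for independent replicates, and over the genes with at least 10 CPM it fell to as low as 0.514 for replicates 2 and 4. The label codes of replicates 1 and 2 share their first part, as do those of replicates 3 and 4, and neither pair was the closest. Of the 9720 genes with a mean of at least 10 CPM, 1.40% lay at least 4-fold apart in replicates 2 and 3, against 15.9% in replicates 1 and 4 and 26.1% in replicates 2 and 4. The first principal component, with 58.1% of the variance, set replicates 2 and 3 against 1 and 4, and the next one, with 34.6%, set replicate 1 against replicate 4.

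**Figure D2:**
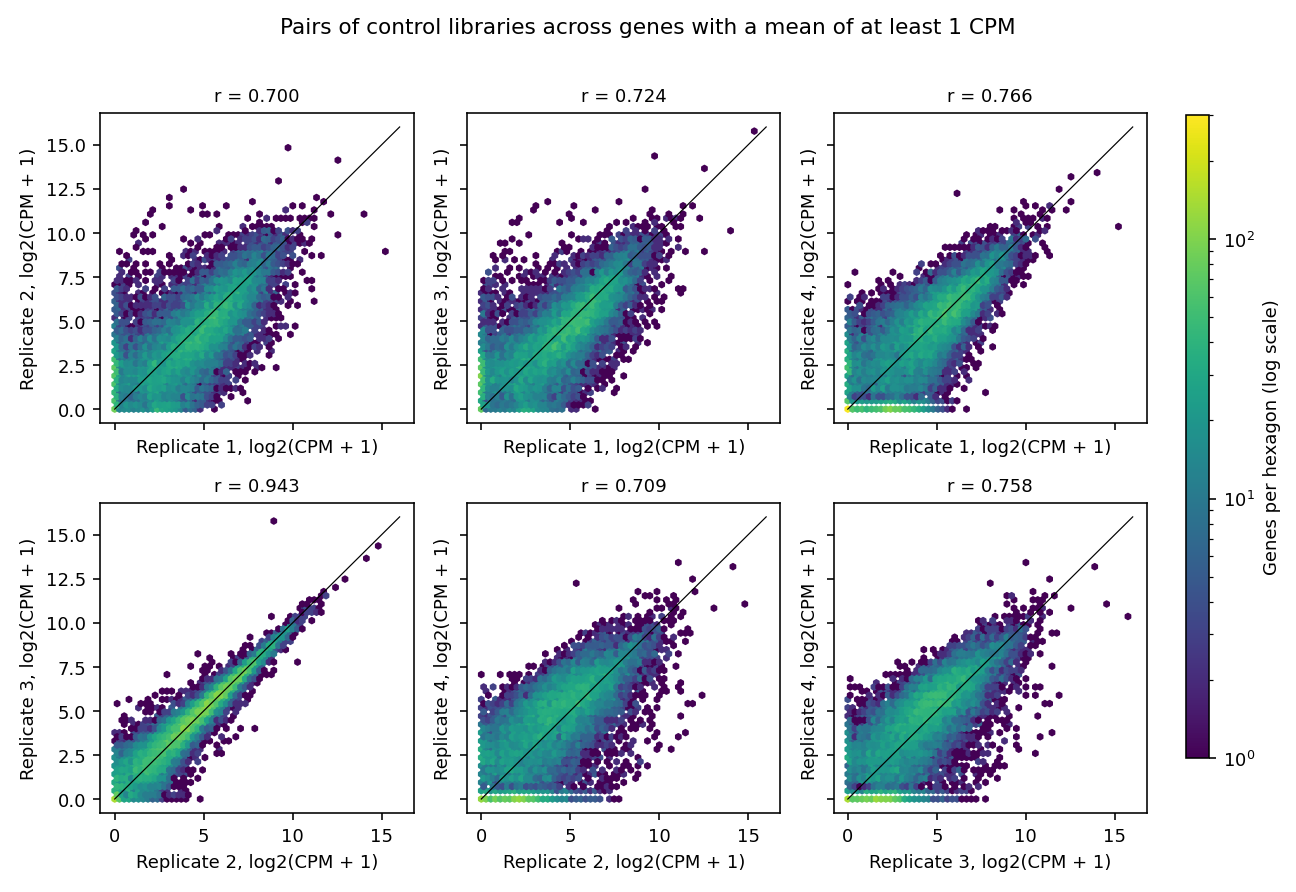
Each panel plots log2(CPM + 1) of a pair of control libraries over 14728 genes, coloured by the number of genes per hexagon on a log scale, with the line of equal levels. The panel of replicates 2 and 3 (r = 0.943) is narrow, and the other panels (r from 0.700 to 0.766) are broad, with many genes on either side of the line.

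The table listed 26582 genes outside the rRNA genes, of which 7073 had no count in any control library. A mean of at least 1 CPM was reached by 14728 genes, at least 10 CPM by 9720, at least 100 CPM by 2418 and at least 1000 CPM by 52. At least 1 CPM was found for 13648, 13648, 14094 and 12999 genes, and 10926 genes reached it in every library. At the depth of the smallest library, 15068, 15718, 16053 and 14295 genes would be counted at least once, so replicate 4 held the fewest and replicate 3 the most at equal depth. The 10 genes with the most counts took 8.71, 8.07, 11.6 and 4.81% of each library, the top 100 19.2, 20.9, 23.1 and 15.4%, and the top 1000 50.6, 57.3, 56.8 and 48.7%. Protein-coding genes held 97.5, 95.5, 96.3 and 97.2% of the counts.

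The largest mean count share fell on Uqcrc1 (chr9:108936633-108949623 of GRCm38), a core protein of respiratory complex III, with 24603 ± 28062 CPM (SD, n = 4). It had 40903, 471, 55756 and 1282 CPM, so 2 libraries were high and 2 low, a split that neither the oocyte nor the red cell genes followed. Without replicate 3 the mean was 14219 CPM, and the signal could not be traced further from counts. Mki67 (chr7:135689784-135716361), the nuclear antigen Ki-67 of dividing cells, had 877, 27833, 22129.9 and 2165 CPM, and Top2a, the topoisomerase of chromosome condensation, had 210.1, 3692, 3334 and 721 CPM. Both were high in replicates 2 and 3. Malat1 (chr19:5795690-5802672), a long RNA of nuclear speckles, had 6190.1, 18112, 13911 and 8670.3 CPM and Xist, the RNA that coats the inactive X chromosome, had 631, 7916, 5837 and 1759.8 CPM. These were again highest in replicates 2 and 3. Ttn, which encodes the giant sarcomere protein titin, had 15472, 2224, 1118 and 10469.6 CPM, and Neb, which encodes the thin filament protein nebulin, had 5798, 906, 489.5 and 3178 CPM. Both genes were high in replicates 1 and 4, with transcripts of 116825 and 26582 bases of merged exons.

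A further 12 of the 20 genes with the highest mean CPM have general roles and had ratios of the highest to the lowest library between 1.15 and 3.70. They were the chaperones Hsp90ab1 and Hsp90aa1, the splicing speckle protein Srrm2, the ubiquitin ligase Huwe1, nucleolin (Ncl), the kinase Wnk1, beta-actin (Actb), the stress granule protein Prrc2c, the poly(A)-binding protein Pabpc1, the initiation factor Eif4g2, the elongation factor Eef2 and the ribosomal protein Rpl4. The highest of them, Hsp90ab1, had 3720.4, 3532, 2780.2 and 5393 CPM, and the steadiest was Prrc2c, with 1954, 1735, 1698 and 1956 CPM. Of the 20 genes, 12 were among the top 20 without replicates 2 and 3, where Uqcrc1, Ttn and Malat1 led. Without replicates 1 and 4 there were 11, and Uqcrc1, Mki67 and Malat1 led. In replicate 2 alone Mki67 held the most counts, and in replicate 4 alone Ttn.

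Per kilobase of merged exons, the scale on which genes are compared, Uqcrc1 again led with 5950.0 ± 6786 CPM per kilobase (SD, n = 4). Rmrp, the RNA of RNase MRP, followed with 2290.4 ± 341 CPM per kilobase (SD, n = 4), but 96.4% of its exon overlaps another gene and the strand setting of the counting is not given. The next were Malat1 with 1678, Mki67 with 1317 and Hsp90ab1 with 1286 CPM per kilobase. Without replicate 2 the mean of Mki67 fell from 13251 to 8390 CPM, which puts it below Hsp90ab1 per kilobase. Scarna9, a guide RNA of Cajal bodies, and Rn7sk, the RNA that holds the elongation factor P-TEFb, had 1089.9 and 1067 CPM per kilobase on 70 and 331 bases. The length of Scarna9 is shorter than the study's reads, and the annotation used for counting is not given. Its mean was 76.3 CPM, so its place here rests on that length. Rpl4, the acidic nuclear protein gene Anp32b and the ribosomal stalk gene Rplp1 completed the first 10, with 832, 714 and 708 CPM per kilobase. Ttn, spread over its long exons, had 62.7 ± 58.6 CPM per kilobase (SD, n = 4).

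Oocyte genes were present in every library and highest in replicate 1. Among the 48 of the 67 oocyte list genes with a mean of at least 10 CPM, 44 were highest in replicate 1, against 32.9% of all genes at this level, or 58.4% with rRNA kept in the library size. A gene is called stable here where the highest library is at most 1.5 times the lowest and variable where it is at least 10 times the lowest, with values under 3 counts set to 3 counts. Of these 48 genes, 0 were stable and 41 variable, against 7.2% stable and 17.8% variable among all 9720 genes at this level. Their median SD of log2(CPM + 1) was 2.07, against 0.81 over all genes. Without replicates 2 and 3 the mean summed level rose to 11090 CPM from 6121, with 6 variable genes of 51, against 6.32% over all genes. Without replicates 1 and 4 it fell to 1152 CPM, with 15 stable genes of 29, a lower share than the 74.1% over all genes. Without replicate 1 alone it was 2231 CPM, and the variable genes numbered 12 of 40, against 10.5% over all genes.

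The zona and growth factor list holds genes of the egg coat and of factors an oocyte sends to its follicle cells, and also Ooep, Oosp1 and Oog1. It summed to 1599.8, 54.2, 39.1 and 452 CPM. Zp2 and Zp3, which build the zona pellucida, had 670.1, 26.3, 11.6 and 213 CPM and 179, 12.1, 0.923 and 72.3 CPM, and Zp1, their cross-linker, had 107, 6.37, 1.29 and 56.3 CPM. Ooep, a protein of the subcortical complex, had 519, 4.41, 20.7 and 83.2 CPM. All were highest in replicate 1, next in replicate 4 and low in replicates 2 and 3. Gdf9, the growth differentiation factor that acts on granulosa cells, had 108, 4.53, 4.52 and 26.6 CPM, whereas Bmp15, its partner from the X chromosome, reached 15.7 CPM in replicate 1 and had 0 counts in replicates 3 and 4. Oosp1 and Oog1 stayed under 2 CPM in each library.

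The oocyte transcription factors summed to 1826, 68.1, 98.2 and 513 CPM. Nobox, a homeobox factor needed for the growth of primordial follicles, had 460.0, 8.69, 15.5 and 113 CPM, and the LIM homeobox factor Lhx8 had 222, 5.39, 9.42 and 70.7 CPM. Sohlh1 and Sohlh2, helix-loop-helix factors upstream of them, had 80.3, 2.69, 4.89 and 14.8 CPM and 162, 2.33, 1.94 and 9.77 CPM. These were highest in replicate 1, next in replicate 4 and low in replicates 2 and 3. Figla, the helix-loop-helix activator of the zona genes, was not higher in replicate 4 than in replicate 3, with 172, 3.92, 6.28 and 4.69 CPM. Tbpl2, the oocyte form of the TATA-binding protein, had 61.3, 0.857, 0.277 and 1.56 CPM. Zfp57, a zinc finger protein that keeps imprints, took 32.1% of the summed level, and Taf7l was the member highest in replicate 4 rather than 1, except with rRNA kept in the library size. Obox1 and Obox5 had no count in any library, and Lhx2 at most 1.10 CPM.

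The promoters of 2 oocyte genes are shown because the E-box CANNTG is the motif that helix-loop-helix factors such as Figla and Sohlh1 bind, and because both Zp3 and Nobox were higher in replicates 1 and 4 than in 2 and 3. The sequences are from RefSeq (GRCm38.p6) and cover the 250 bases before the start, read 5′ to 3′ on the strand of the gene. Capitals mark CANNTG, which reads the same way on both strands. Zp3 lies on the plus strand (chr5:135979855-135980104) with 3 matches, and Nobox on the minus strand (chr6:43309555-43309804) with 2.
Zp3: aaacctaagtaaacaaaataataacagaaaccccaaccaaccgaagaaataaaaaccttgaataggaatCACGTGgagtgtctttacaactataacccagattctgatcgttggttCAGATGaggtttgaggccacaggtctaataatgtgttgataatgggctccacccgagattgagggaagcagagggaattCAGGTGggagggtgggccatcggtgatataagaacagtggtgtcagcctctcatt
Nobox: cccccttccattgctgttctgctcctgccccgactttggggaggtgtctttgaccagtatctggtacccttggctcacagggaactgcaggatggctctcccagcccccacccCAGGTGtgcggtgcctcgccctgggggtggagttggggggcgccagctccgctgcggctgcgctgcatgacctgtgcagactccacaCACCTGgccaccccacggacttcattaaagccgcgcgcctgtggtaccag
The motif stood in 50 of 68 windows (73.5%) of the 54 oocyte list genes found in the promoter table, and in 66.2% of all 32851 windows. The table held no entry for Zp1 and Zp2. A match describes the letters of the window and is not shown to be a binding site.

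Genes of germ cell RNA binding and of the piRNA pathway, which silences transposons, summed to 5549, 259, 310.3 and 1393 CPM, and 14 of 14 genes with at least 10 CPM were highest in replicate 1. Tdrd1, a Tudor scaffold of the piRNA pathway, had 1257, 54.6, 81.2 and 381 CPM, and Mov10l1, its helicase, had 523, 32.1, 34.1 and 162 CPM. The RNA helicase Ddx4 and the translation regulator Dazl, general germ cell markers, had 128, 13.1, 19.4 and 22.7 CPM and 347, 18.9, 8.96 and 43.0 CPM. Per kilobase, the chromatin protein gene Dppa3 (Stella) stood highest in the list, with 281 ± 377 CPM per kilobase (SD, n = 4) and 743, 24.4, 42.3 and 195 CPM. Without replicate 1 the mean of Dppa3 was 87.2 CPM, against 251 CPM in all libraries. Cpeb1, which controls the tails of stored mRNAs, had 603, 24.6, 26.2 and 188 CPM and Ybx2, which packs them, 106, 10.8, 8.22 and 64.8 CPM. Nanos3, a factor of earlier germ cells, was at or under 0.831 CPM.

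The maternal effect list holds genes whose proteins the egg stores for the embryo, together with Kit, Uchl1 and Dppa5a. It summed to 5985, 289.5, 281 and 1193 CPM, with all 7 genes of at least 10 CPM highest in replicate 1. Nlrp5, a member of the subcortical complex, led with 2496, 64.2, 116 and 408 CPM and took 39.8% of the sum. Padi6, of the cytoplasmic lattices, had 834, 26.3, 27.1 and 185 CPM, and Tle6, a partner of Nlrp5, had 324, 20.7, 21.4 and 155 CPM. Kit, the receptor through which pregranulosa cells reach the oocyte, had 1127, 142, 73.3 and 182 CPM. In replicate 4 most of these genes kept between replicate 1 and the low pair, but Nlrp4f had 303, 9.92, 10.2 and 10.5 CPM and was high in replicate 1 only. Zar1 and Npm2, which rise as oocytes grow, did not pass 17.0 CPM in any library.

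Genes of the meiotic prophase summed to 2832, 531, 373 and 838 CPM. Smc1b, the meiotic cohesin, had 1102, 27.4, 51.7 and 341 CPM, and Sycp3 and Sycp1 of the synaptonemal complex had 575, 14.0, 28.9 and 93.4 CPM and 315, 23.3, 29.1 and 81.6 CPM, each highest in replicate 1. Annotated exons of another gene overlap 52.2% of those of Sycp3. The cohesin gene Stag3 differed, with 79.1, 222, 14.7 and 31.6 CPM and its highest level in replicate 2, and Msh5 was also highest there. Genes of the start of meiosis were low: Stra8 had no count in any library, and Spo11, the enzyme of meiotic breaks, and Dmc1, the meiotic recombinase, reached at most 1.18 CPM and 4.78 CPM.

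**Figure D3:**
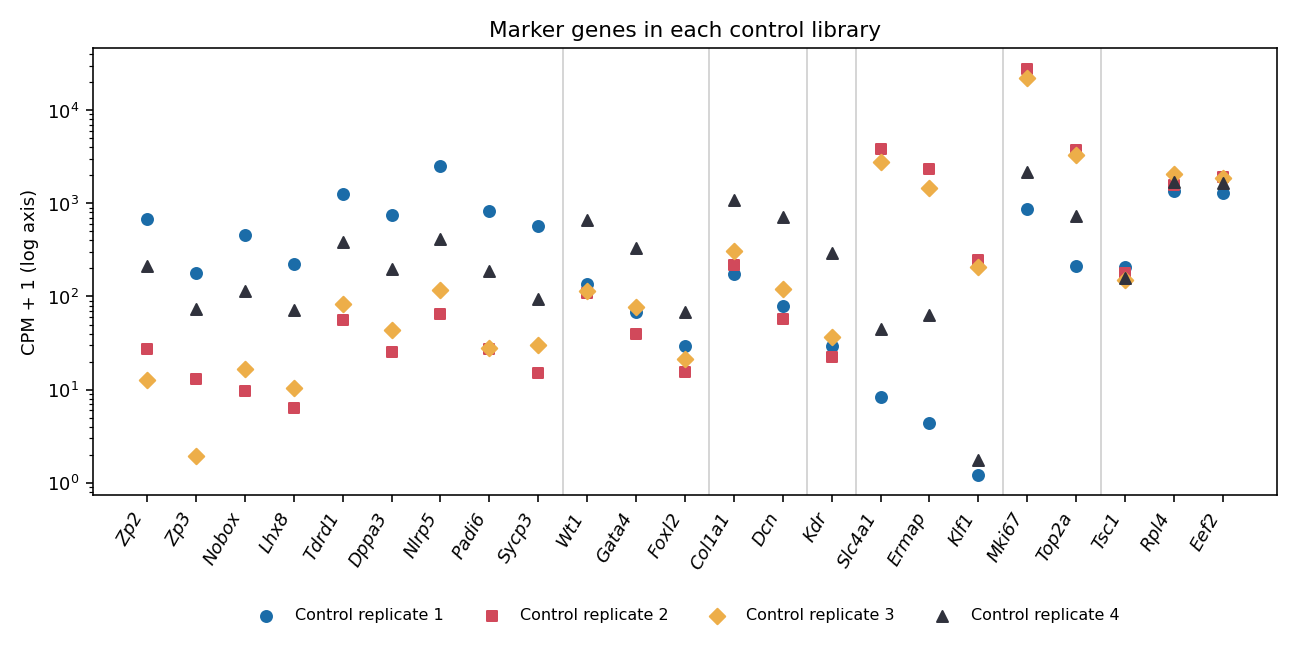
Points give CPM + 1 on a log axis for marker genes in each control library, with vertical lines between oocyte, pregranulosa, stroma, endothelial, erythroid, proliferation and general genes. Zp2 ran from 11.6 CPM in replicate 3 to 670.1 CPM in replicate 1, Slc4a1 from 7.28 CPM in replicate 1 to 3867 CPM in replicate 2, and Rpl4, Eef2 and Tsc1 lay close together.

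Sums of dormancy and survival genes were closer between libraries than those of oocyte lists, at 2395, 2047, 1707 and 1979.8 CPM. The highest sum was in replicate 1, but in replicate 2 with edgeR's TMM factors or DESeq2's size factors. With rRNA kept the sums were 1844, 1201, 1015 and 489 CPM. The median SD was 0.63, against 0.81 over all genes. Without replicates 2 and 3 it was 0.84, against 0.61, and 5 of 14 genes were stable, against 35.5%. Without replicates 1 and 4 it was 0.24, against 0.22, and 12 were stable, against 74.1%. Foxo3, the transcription factor that holds oocytes dormant, had 445, 538, 339 and 222 CPM. Tsc1 and Cdkn1b, brakes on growth and on the cell cycle, were stable, with 207, 179.6, 149 and 158 CPM and 59.4, 64.5, 48.1 and 65.2 CPM, and Pdpk1, the kinase that activates Akt, was the other stable gene, with 470.3, 368, 315 and 354 CPM. Of 14 genes, 3 were stable and 2 variable, against 7.2% stable and 17.8% variable over all genes. Without replicate 1 the counts were 5 and 1, against 19.7% and 10.5% over all genes, and without replicate 4 6 and 1, against 20.4% and 11.3%. With rRNA kept 1 was stable, against 1.70%. The variable ones serve the DNA damage response: Trp63, the p63 gene of oocytes, had 374, 12.6, 18.0 and 90.2 CPM, and Chek2, the kinase above it, had 34.8, 129, 101 and 8.20 CPM. Trp63 was high where the oocyte lists were high, and Chek2 was high in replicates 2 and 3. The death genes Bbc3 and Pmaip1, targets of p63, stayed at or under 8.13 CPM.

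Pregranulosa genes summed to 711, 514, 714 and 2318 CPM, highest in replicate 4. Of the 16 genes with at least 10 CPM, 13 were highest there, but 7 with rRNA kept in the library size. Over all genes with at least 10 CPM the share highest in replicate 4 was 35.1%, or 7.74% with rRNA kept. Wt1 and Gata4, transcription factors of the gonadal soma, had 134, 107, 114 and 659.8 CPM and 66.6, 38.4, 75.9 and 331 CPM. Foxl2, the factor that keeps granulosa identity, had 28.1, 14.6, 20.3 and 66.4 CPM, and Lgr5 and Rspo1, a receptor and a ligand of Wnt signalling, had 37.9, 25.6, 15.2 and 163 CPM and 47.0, 33.5, 59.2 and 157 CPM. All these were highest in replicate 4 with the counts outside rRNA. Kitl, the ligand of Kit, had 79.4, 36.5, 149 and 214 CPM, whereas Runx1 was highest in replicate 2, with 57.7, 122, 120.1 and 81.3 CPM. Of the 16 genes 0 were stable and 5 variable, and their median SD was 1.18, against 7.2% stable and 17.8% variable over all genes and a median SD of 0.81. The variable ones numbered 3 without replicate 3 and 1 without replicate 4, against 16.6% and 11.3% over all genes. They numbered 2 with TMM factors, 4 with DESeq2 factors and 2 with rRNA kept, against 16.8%, 16.9% and 21.4%. The mean sum was 1514 CPM without replicates 2 and 3 and 614 CPM without replicates 1 and 4, against 1064 ± 841 CPM (SD, n = 4) in all 4, and 646 CPM without replicate 4 alone.

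Granulosa genes of growing follicles were low, with sums of 181, 66.2, 116 and 358 CPM. Slc18a2, a monoamine transporter, took 55.6% of the level, and Inhbb, an activin subunit, had 55.5, 5.14, 17.2 and 79.7 CPM. The hallmark genes of growth were low. Amh, the hormone of growing follicles, had at most 3.51 CPM, Fshr, the receptor of follicle-stimulating hormone, at most 0.554 CPM, and Cyp19a1, the aromatase gene, at most 5.86 CPM. The highest sum was in replicate 4, and in replicate 1 with rRNA kept in the library size.

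Stromal genes were highest in replicate 4, with sums of 1027, 1069, 1733 and 6518 CPM. All 14 genes with at least 10 CPM were highest in replicate 4, and 12 were with rRNA kept in the library size. The fibril collagen genes Col1a1 and Col3a1 had 172, 215, 303 and 1091 CPM and 156, 206, 301 and 1117 CPM. Dcn, a proteoglycan that binds collagen, had 77.9, 55.8, 119 and 718 CPM, and Pdgfra, a receptor of fibroblasts, had 43.0, 47.1, 68.7 and 259 CPM. Per kilobase, the microfibril gene Mfap4 was highest in the list, with 165 ± 172 CPM per kilobase (SD, n = 4). The ligand Wnt5a varied most, with 2.80, 1.96, 10.2 and 75.8 CPM. Of these genes 0 were stable and 3 variable, against 7.2% stable and 17.8% variable over all genes. The variable ones numbered 1 without replicate 2, against 14.0% over all genes, and 0 without replicate 4, against 11.3%. With TMM factors 1 was variable, with DESeq2 factors 1 and with rRNA kept 0, against 16.8%, 16.9% and 21.4%. The mean sum was 3773 CPM without replicates 2 and 3 and 1401 CPM without replicates 1 and 4, against 2587 ± 2641 CPM (SD, n = 4) in all 4, and 1277 CPM without replicate 4 alone.

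Summed levels of vessel and muscle wall genes followed the stroma. Smooth muscle and pericyte genes summed to 104, 90.0, 150.0 and 757 CPM, with 23.2, 11.1, 28.9 and 292 CPM for the myosin Myh11 of smooth muscle. Endothelial genes summed to 49.9, 76.0, 105 and 479 CPM, of which the receptor Kdr took 53.3% with 28.5, 21.2, 36.2 and 293 CPM. Both sums were highest in replicate 4 under every scaling tried. Of the 5 endothelial genes with at least 10 CPM, 4 were highest in replicate 4 and 1 in replicate 2, against 35.1 and 20.8% over all genes. Cdh5, the cadherin of endothelial junctions, had 9.64, 11.3, 10.6 and 44.9 CPM, while Cldn5, Sox17 and Sox18 stayed under 2 CPM in each library. Surface epithelium genes summed to 642, 349, 351 and 1634 CPM, with 267, 235, 265 and 725 CPM for Aldh1a1, a retinaldehyde dehydrogenase, and Upk3b, a marker of mesothelium, had 38.0, 13.6, 14.5 and 182 CPM. The steroidogenic list summed to 231, 72.7, 201 and 466 CPM, of which Hsd3b1, the 3-beta-hydroxysteroid dehydrogenase, took 85.9%, while the theca genes Cyp17a1, Lhcgr and Insl3 stayed under 2 CPM in each library. The surface epithelium and steroidogenic sums were highest in replicate 4, and in replicate 1 with rRNA kept in the library size.

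Red cell genes were the mark of replicates 2 and 3. The erythroid list summed to 47.7, 9195, 6147 and 166 CPM, and all 7 of its genes with at least 10 CPM were variable and highest in replicate 2 under every scaling tried. Over all genes 17.8% were variable and 20.8% highest in replicate 2. Without replicates 2 and 3, 4 of the list reached 10 CPM and 1 of these was variable, against 6.32% over all genes. Slc4a1 (chr11:102348824-102366203), the band 3 anion exchanger of the red cell, took 42.9% of the level, with 7.28, 3867, 2751 and 44.1 CPM. The erythroid transcription factor Klf1 had 0.221, 244, 207 and 0.781 CPM. The haem synthesis gene Alas2 had 14.3, 754, 352 and 31.3 CPM. Of the globin genes, Hbb-b1 had 18.8, 444, 147 and 18.4 CPM and Hba-a2 0.294, 13.0, 0.185 and 0 CPM, and Hba-a1, Hba-x and Hbb-bh1 had no count in any library. The rule for reads that map to several copies is not given, which bears on near-identical globin genes. The mean sum was 107 CPM without replicates 2 and 3 and 7671 CPM without replicates 1 and 4. It was 2120.3 CPM without replicate 2 alone, against 3889 ± 4541 CPM (SD, n = 4) in all 4.

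A further list of red cell membrane and erythroid regulator genes, written after the data were seen, summed to 184, 25856, 18793 and 371 CPM. Its genes were chosen with this pattern known, so a count of its variable genes is not given. It holds the membrane skeleton genes Spnb1 and Ank1, the transferrin receptor Tfrc (48.8, 2073, 1523 and 85.6 CPM) and the regulator Gata1 (1.10, 55.5, 69.2 and 0.781 CPM). Leukocyte genes of the earlier list summed to 66.8, 255, 221 and 102 CPM, of which lysozyme, Lyz2 (4.12, 158, 119.6 and 37.1 CPM), took 49.5%. The list as a whole did not follow Lyz2. Its median gene had 0.688, 0.559, 1.20 and 0.241 CPM per kilobase. Of its 3 genes with at least 10 CPM, 1 each was highest in replicates 2, 3 and 4, against 20.8, 11.2 and 35.1% over all genes. Of its 19 genes, 12 had a mean of at least 1 CPM, among them Ptprc (20.1 CPM), Cpa3 (18.7 CPM), Mrc1 (8.26 CPM), Tyrobp (7.34 CPM) and Cd68 (5.07 CPM). The macrophage genes C1qa and C1qb were the 2 with no count in any library.

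The promoters of 2 erythroid genes are shown because both moved with the erythroid list. Capitals mark the GATA motif, AGATAA or TGATAA, searched on both strands, so that TTATCA is TGATAA read on the opposite strand. The sequences are again the 250 bases before the start from RefSeq (GRCm38.p6), 5′ to 3′ on the strand of the gene. Klf1 lies on the plus strand (chr8:84901732-84901981) and Ermap, an erythroid membrane protein gene, on the minus strand (chr4:119189996-119190245).
Klf1: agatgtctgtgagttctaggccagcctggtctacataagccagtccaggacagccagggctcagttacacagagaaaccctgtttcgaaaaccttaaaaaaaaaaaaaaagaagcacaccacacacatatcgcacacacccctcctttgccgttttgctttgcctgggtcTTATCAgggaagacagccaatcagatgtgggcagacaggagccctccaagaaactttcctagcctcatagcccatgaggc
Ermap: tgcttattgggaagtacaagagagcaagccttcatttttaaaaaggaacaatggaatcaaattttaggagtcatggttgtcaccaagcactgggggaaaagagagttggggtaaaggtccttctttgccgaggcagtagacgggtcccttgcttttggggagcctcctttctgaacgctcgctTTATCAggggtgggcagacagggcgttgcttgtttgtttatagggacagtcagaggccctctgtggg
The motif stood in all 8 windows of the 8 of 12 erythroid list genes found in the promoter table, and in 16.6% of all 32851 windows. CACCC, the core of the motif that Klf1 binds, stood in 7 of the 8 windows and in 52.0% of all. Together with the list written after the data were seen, the GATA motif stood in 15 of 21 windows. The table held no entry for Slc4a1. Here too a match describes the letters of the window and is not shown to be a binding site.

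Cell cycle genes were high in the same libraries as the erythroid genes. The proliferation list summed to 2031, 34977, 28919 and 3783 CPM, of which Mki67 took 76.0%. In 13 of 14 genes replicates 2 and 3 were the highest pair, against 24.2% of all genes, among them the ribonucleotide reductase subunit Rrm2 (21.5, 419.7, 495 and 16.0 CPM), the replication clamp Pcna (98.8, 444, 492 and 108 CPM) and cyclin B2, Ccnb2 (75.2, 489.7, 428 and 100.4 CPM). The exception was the mitotic checkpoint kinase Bub1, with 209.9, 167, 184 and 98.8 CPM. Replication-dependent histone genes summed to 269, 3080.3, 2819 and 924 CPM, with 104, 604, 646 and 207 CPM for the most abundant, Hist1h4d. Of 68 histone genes listed, 22 reached a mean of 10 CPM over the 4 libraries, and 13 without replicates 2 and 3. Whether erythroid cells held these transcripts was not tested. Without replicates 2 and 3 the mean proliferation sum was 2907 CPM, and without replicates 1 and 4 it was 31948 CPM.

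**Figure D4:**
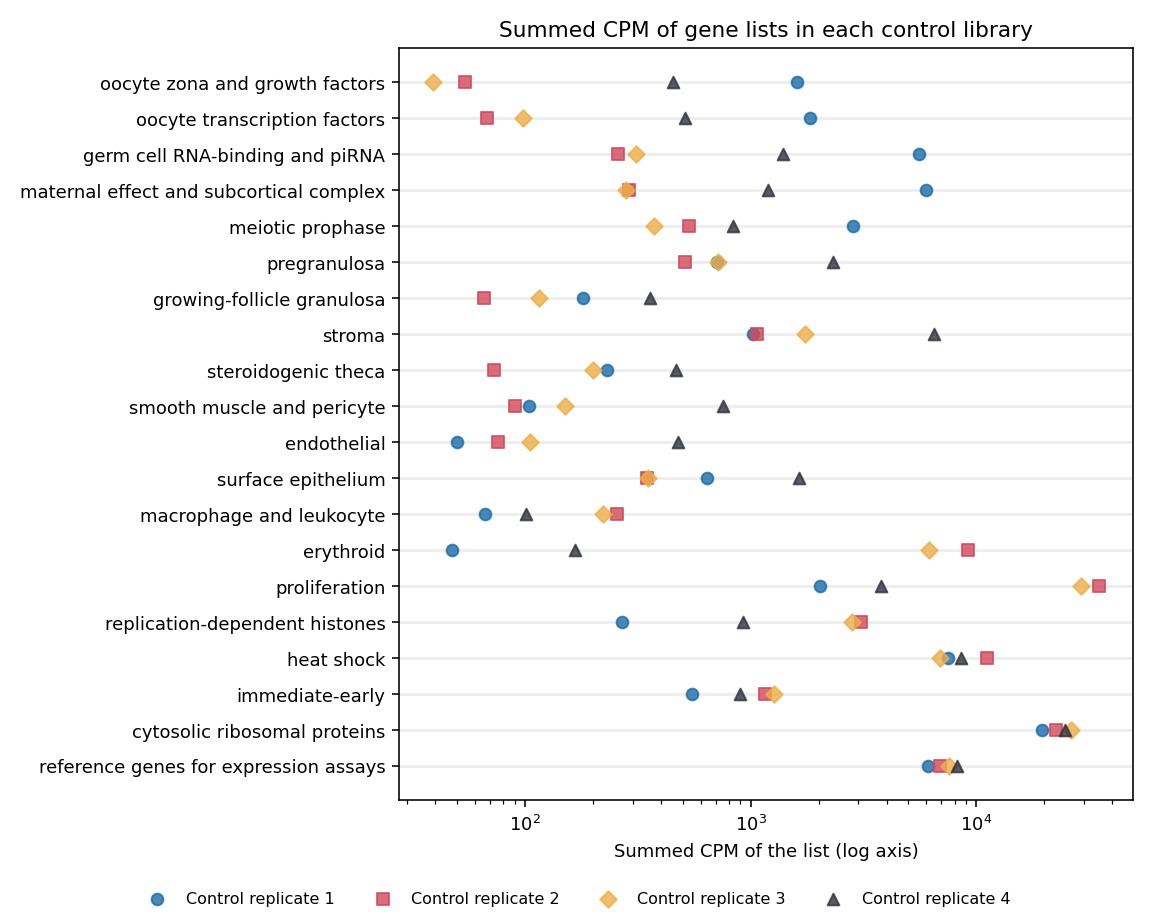
Points give the summed CPM of 20 gene lists on a log axis in each control library. The oocyte lists were highest in replicate 1, stroma (6518 CPM) in replicate 4 and the erythroid list (9195 CPM) in replicate 2, while cytosolic ribosomal protein genes lay between 19563 and 26154 CPM. With rRNA kept in the library size the growing granulosa, theca, surface epithelium and reference sums are highest in replicate 1, and with TMM or DESeq2 factors the reference sum is highest in replicate 3 or 2.

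Most genes of the adipocyte, oviduct and unrelated organ lists were low or had no count, with Pax8, Ovgp1 and Gfap above 10 CPM in the mean. Of 6 adipocyte genes, Adipoq, Cidec, Fabp4, Lep and Cfd had no count, and Plin1, the lipid droplet protein, was found in replicate 4 alone, at 4.30 CPM. Oviduct and mesonephric genes summed to 36.4, 13.6, 73.0 and 54.7 CPM, with 16.6, 3.55, 54.2 and 40.2 CPM for the factor Pax8 and a mean of 10.3 CPM for Ovgp1, the oviductal glycoprotein, and Lhx1 had no count. Among 13 markers of unrelated organs, 7 had no count: Myl2, Ins1, Neurod1, Sftpc, Prm1, Tnp1 and Cga. Their sums of 17.9, 47.0, 41.2 and 13.3 CPM came for 82.2% from Gfap, an intermediate filament gene.

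Immediate-early genes, which respond to signals and to handling of cells within minutes, summed to 551, 1157, 1264 and 900.4 CPM. The leading gene Jun had 49.7, 422, 208 and 182 CPM, and the phosphatase gene Dusp1 had 6.99, 212, 123 and 49.2 CPM. Both were lowest in replicate 1. Ier2, of the same response, was the stable one of 18 genes, with 11.3, 13.5, 10.2 and 13.7 CPM. Without replicate 2 the stable ones numbered 3, against 11.3% over all genes. Of the list 4 were variable, against 7.2% stable and 17.8% variable over all genes. The variable ones numbered 1 without replicate 1 and 2 with rRNA kept, against 10.5% and 21.4%, and Fosl1 had no count. Heat shock genes summed to 7466, 11139.7, 6879 and 8499.6 CPM, of which Hsp90ab1 took 45.4%. The stress-induced Hspa1a and its twin Hspa1b had 0.294, 506, 153 and 3.52 CPM and 1.77, 503, 203 and 3.52 CPM, and their cochaperone Dnajb1 had 21.1, 339, 169.9 and 27.3 CPM. These 3 were high in replicates 2 and 3, while the constitutive Hspa8 had 385, 651, 555 and 470.3 CPM and the endoplasmic reticulum chaperone Hspa5 331, 503, 427 and 508 CPM.

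Cytosolic ribosomal protein genes were close between libraries. The 80 cytosolic ribosomal protein genes with at least 10 CPM summed, with the rest of their list, to 19563, 22438, 26154 and 24749 CPM, their median SD was 0.30 against 0.81 over all genes, and 34 of them were stable and 1 variable, against 7.2% and 17.8% over all genes. The stable count was 19 with TMM factors, 19 with DESeq2 size factors and 1 with rRNA kept, against 6.99%, 6.88% and 1.70% over all genes. It was 54 of 81 without replicates 2 and 3 and 73 of 79 without replicates 1 and 4, and 58 without replicate 1 alone, against 35.5%, 74.1% and 19.7% over all genes. Rps20 had 481, 469, 545 and 414 CPM, whereas Rpl3 had 175, 508, 537 and 618 CPM and was low in replicate 1. Mitochondrial ribosomal protein genes summed to 1955, 1208, 1408 and 1908 CPM, with 2 of 59 stable against 7.2% over all genes, and with 12, 4, 4 and 15 stable without replicates 1, 2, 3 and 4 in turn, against 19.7%, 11.3%, 10.1% and 20.4%.

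Nuclear genes of oxidative phosphorylation summed to 46691, 4494, 60714 and 6488 CPM, but Uqcrc1 alone took 83.1% of the mean. Of 69 genes 12 were stable and 3 variable, against 7.2% and 17.8% over all genes, with a median SD of 0.51, and with rRNA kept 0 were stable and 6 variable, against 1.70% and 21.4%. The stable ones numbered 25 without replicate 1, 19 without replicate 2 and 21 without replicate 4, against 19.7%, 11.3% and 20.4% over all genes, and the variable ones 1 without replicate 1, against 10.5%. Atp5b and Atp5a1, the catalytic subunits of the ATP synthase, had 782, 813, 1136 and 993 CPM and 470.2, 418, 524 and 615 CPM. Uqcrc2, the other core protein of complex III, had 148, 76.0, 106 and 93.4 CPM, with a ratio of the highest to the lowest library of 1.94, against 118 for Uqcrc1. No gene symbol carried the prefix mt- of genes encoded in mtDNA. Rnr1 and Rnr2 lack this prefix too, so mtDNA genes listed without it would not be found by this search.

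Among 18 reference genes often used in expression assays, 3 were stable, against 7.2% over all genes: Sdha, a subunit of succinate dehydrogenase (147, 172, 205 and 200.4 CPM), Eef2 (1285, 1912, 1872 and 1640.3 CPM) and Polr2a, the largest subunit of RNA polymerase II (568, 699.9, 719 and 496 CPM). With TMM factors the stable ones numbered 2, with DESeq2 factors 1 and with rRNA kept 0, against 6.99%, 6.88% and 1.70%. They numbered 5 without replicate 1, 5 without replicate 2 and 6 without replicate 4, against 19.7%, 11.3% and 20.4% over all genes. Gapdh, a glycolytic enzyme, had 59.9, 113, 175 and 276 CPM and Tubb5, a beta-tubulin, 19.1, 124, 108 and 62.9 CPM. The sum over the list was 6071, 6921, 7529 and 8205 CPM, highest in replicate 4, but in replicate 3 with TMM factors, in 2 with DESeq2 factors and in 1 with rRNA kept.

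Long noncoding RNA genes of the list summed to 7693, 27997, 21815 and 12749 CPM, and Malat1 took 66.7% of the mean. H19, an imprinted gene of fetal tissue, had 243, 263, 293 and 1239 CPM, and Kcnq1ot1, the RNA of an imprinted domain, had 227, 872, 816 and 563 CPM. Neat1, the RNA of paraspeckles, was high in replicates 2 and 3, with 0.515, 101, 64.8 and 1.17 CPM, and Miat had no count. Structural small RNA genes summed to 1050.2, 1316, 1039 and 722 CPM, highest in replicate 2 but in replicate 1 with rRNA kept, with 1 of 3 stable against 7.2% over all genes, Rmrp (763, 623, 657 and 531 CPM). Rmrp was not stable with TMM factors, with DESeq2 factors or with rRNA kept. Rny1 had no count.

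Across all 9720 genes with a mean of at least 10 CPM, the SD of log2(CPM + 1) had a median of 0.81, with quartiles of 0.49 and 1.23 and a range from 0.01 to 4.85. The median ratio of the highest to the lowest library was 3.58. In all, 700 genes (7.2%) were stable and 1730 (17.8%) variable, and 233 had a ratio of at least 100. Stable genes had a median mean level of 97.3 CPM against 25.5 CPM for variable genes. Among genes with 10 to 30 CPM 2.85% were stable, and among those with 300 to 1000 CPM 16.5%. Over 1000 CPM the share was 11.5%, and 26.9% were variable there. The part of the coefficient of variation beyond counting error had a median of 0.542, and edgeR's common biological coefficient of variation was 0.657 over 10888 genes. The libraries highest for a gene were most often 1 and 4 (3609 genes, 37.1%) or 2 and 3 (2352 genes, 24.2%).

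The counts depended on the libraries used, and with fewer libraries a ratio can only shrink. Without replicates 2 and 3, 3466 genes were stable and 617 variable. Without replicates 1 and 4 the counts were 6468 and 29. The other pairs were not left out, so these counts do not show how much of the spread the division carries. Leaving out replicate 1, 2, 3 or 4 alone gave 1852, 1108, 990 and 1908 stable and 987, 1382, 1632 and 1058 variable genes. Of the 700 stable genes, 404 were also stable with TMM factors, 385 with DESeq2 size factors and 0 with rRNA kept in the library size, so which genes count as stable depends on the scaling. The TMM factors were 1.07, 0.881, 0.935 and 1.13.

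The gene of lowest spread was Bre (current symbol Babam2; chr5:31697684-32084962), a subunit of a deubiquitinating complex of DNA repair, with 41.8, 42.1, 41.6 and 42.6 CPM and a ratio of 1.02. Ndufa13, a subunit of respiratory complex I, had 73.1, 70.2, 72.6 and 73.8 CPM, and Atp2a2, the calcium pump of the endoplasmic reticulum, had 207, 217, 203 and 216 CPM. Ercc5, the endonuclease of excision repair, and Msh3, of mismatch repair, had 54.4, 54.5, 54.0 and 57.8 CPM and 95.8, 100.4, 104 and 101 CPM. The other genes among the 12 were the ubiquitin ligase component Dda1, the zinc finger gene Zfp944, the U2 snRNP gene Snrpa1, the prohibitin gene Phb2, the ribosome assembly gene Pak1ip1, the translation release factor gene Gspt1 and the RNA-binding gene Zfr. The 12 had ratios from 1.02 to 1.10, and all were stable with TMM and DESeq2 factors too (ratios up to 1.40), but 0 were with rRNA kept. Their spread was within counting error except for Atp2a2, Gspt1 and Zfr, where the part beyond it was 0.015, 0.020 and 0.031. Over all 9720 genes 28 were within counting error. The 12 were picked as the lowest of these, so their order is not shown to reflect steadier expression. At the limits of the rules, Rpl4 was just stable and Ociad1 just outside, and Bcl2l13 was just variable and Wwc1 just outside.

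The 12 genes of highest spread were all far higher in replicates 2 and 3, and most are genes of red cells and their precursors. Car2, the carbonic anhydrase of the red cell, had 2.21, 1574, 1429.6 and 5.47 CPM, and Hemgn, a nuclear protein of blood progenitors, had 3.16, 2219.9, 1718 and 10.9 CPM. Ctse, the aspartic protease cathepsin E, had 6.91, 2855, 2649.7 and 13.3 CPM. Their SDs of log2(CPM + 1) were 4.85, 4.73 and 4.64. The blood group proteins Kel (1.32, 1078, 649 and 7.42 CPM) and Slc14a1, the urea transporter (0.809, 383, 361 and 1.17 CPM), and the water channel Aqp1 (1.18, 930.2, 707 and 13.7 CPM) followed the same order. Slc4a1, the membrane skeleton gene Epb4.2, the repressor Gfi1b and Ermap were also among the 12. The ratios of the 12 ran from 413 to 814. Without replicates 2 and 3, 2 of the 12 were still variable, and without replicates 1 and 4 the number was 0.

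**Figure D5:**
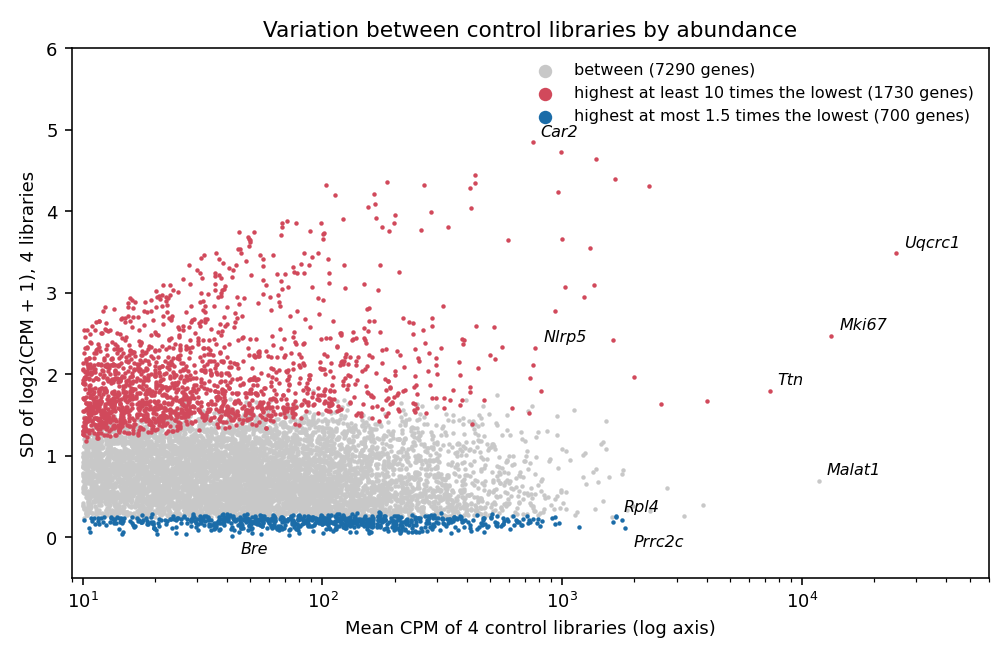
Each point is a gene with a mean of at least 10 CPM, plotted by its mean CPM on a log axis and the SD of log2(CPM + 1) over the 4 control libraries. The 700 stable genes lie along the lower edge and the 1730 variable genes above, with Car2 at an SD of 4.85 and Bre at 0.01.

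The mito-supplemented libraries, taken on their own, give a second view of which genes vary, since the control ratios did not use them. Of 8949 genes with a mean of at least 10 CPM in both sets, 788 (8.81%) were stable and 703 (7.86%) variable among the mito-supplemented libraries. Among the 690 genes stable in controls 23.5% were stable there too, which is 20.6% of the genes stable there. Among the 1329 variable in controls 31.5% were variable there, which is 59.5% of those variable there. Of the 12 genes of lowest spread in controls, Bre had a ratio of 1.18 there and Snrpa1 a ratio of 4.08. The 12 of highest spread had ratios there of 36.6 (Aqp1) or more, so red cell genes varied among those libraries as well. Spearman's rho of the SDs across genes was 0.508, which again only describes genes.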

How the data were processed

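RNA-Seq libraries labelled as control primordial follicles of postnatal day 3 were described. The deposited values are raw read counts per gene symbol. Per the submitters' processing notes, the authors trimmed reads with Trim Galore 0.4.4, mapped them to mm10 with STAR 2.5.3a, counted them with featureCounts and used edgeR 3.20.9. The notes do not give the annotation release, the strandedness or how multi-mapping reads were counted.

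From the counts of the 4 control libraries, CPM was computed after removing Rnr1, Rnr2, Rn45s and Rn18s, in Python 3.11.15 with pandas 2.3.3, numpy 2.4.6 and scipy 1.17.1. Plots were drawn with matplotlib 3.10.9. A pseudocount of 1 CPM was used on the log2 scale, a floor of 3 counts in ratios, and a mean of at least 10 CPM for calls of stable and variable genes. Exon lengths and coordinates are from GENCODE M21, in which 24534 of 26586 symbols were found, 2065 under a later name. No difference between groups was tested, since there is 1 group, and Dixon's ratio was used to find libraries far from the others. As alternatives, edgeR 4.0.16 (TMM and dispersion) and DESeq2 1.42.0 in R 4.3.3 gave scaling factors, rRNA was kept in the library size, filters and pseudocounts were changed, and libraries were left out. The method was run on simulated counts with known unchanged and changed genes. Those counts had counting error alone and no other spread between libraries. The run therefore checks the calculation and not the calls made on these libraries. A description of 4 bulk libraries cannot assign a transcript to a cell, and counts of stable and variable genes hold for these libraries and this scaling.

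The genes named were the 20 of highest mean CPM, the 10 of highest mean CPM per kilobase, the 12 of lowest and of highest SD of log2(CPM + 1), genes at the limits of the rules, and members of 28 gene lists. Some genes that this rule names are not reported. The members and lists were chosen with earlier results of these data known, and 3 further lists were written after these values were seen. The treatment comparison and the further control library of the study were left out.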

Additional observations from a re-analysis of the deposited data

Results flagged for a closer look

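In 17 of 301 measures and genes tried on the log2 scale, the highest or the lowest control library lay far from the others, with a gap to its neighbour over the critical share of the whole range for 4 samples (Dixon). Chance gives such a gap in about 1 in 20 groups of 4 samples, and here it was 5.65%. Over all 9720 genes with at least 10 CPM it was found in 611 (6.29%). Replicate 4 lay far below the others in the nuclear rRNA share (gap 0.896 of the range). It lay far above them in the adipocyte list (1, from Plin1 alone), Ercc5 (0.875), Pak1ip1 (0.862), Akt1 (0.869), Wt1 (0.875), Cdh5 (0.903), Aldh1a1 (0.885) and H19 (0.885). Replicate 1 lay far above in Figla (0.890), Nlrp4f (0.983), Syce2 (0.887) and Tsc2 (0.872), and far below in Eng (0.880). Replicate 2 lay far above in Snrpa1 (0.930) and Nr5a1 (0.935), and far below in Egr1 (0.968). Ercc5, Pak1ip1 and Snrpa1 are among the 12 genes of lowest spread, where the whole range is small.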

How the results depend on the processing

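For levels, a change counted as a move only where it passed 1 SD between libraries, and for counts where it passed 1.5 times. Of 684 values 48 moved, but lists and genes that vary have an SD near their mean, so the rest are not shown to be stable. The mean erythroid sum, for example, was 107 CPM without replicates 2 and 3, against 3889. The number of genes detected stayed within these limits under every alternative run for it, and the median SD (0.81) with other pseudocounts and without the filter. The median SD was 0.97 with rRNA kept in the library size, 0.63 without replicate 4, 0.61 without replicates 2 and 3 and 0.22 without replicates 1 and 4. Stable genes numbered 700, but 131 with rRNA kept in the library size, and between 990 and 1908 with each library left out in turn. Variable genes numbered 1730 (17.8%), and between 987 and 1632 with each library left out. With a mean of at least 50 CPM they numbered 476 of 4476 genes (10.6%), so both the number of genes and the share were lower. Alternatives chosen after seeing the data gave 3466 stable and 617 variable genes without replicates 2 and 3, and 6468 and 29 without replicates 1 and 4. With rRNA kept in the library size all levels fall by construction, and the mean sums became 1137 CPM for dormancy, 519 for immediate-early, 4618 for heat shock, 3809 for reference, 594 for structural small RNA, 12471 for cytosolic and 880.4 for mitochondrial ribosomal protein genes. The highest library then changed in 5 of 31 lists, and in 2 with TMM or with DESeq2 factors. Ranked by CPM per kilobase, 8 of the 20 genes of highest CPM were shared. Over genes with at least 10 CPM, r was 0.518 for replicates 1 and 2, 0.552 for 1 and 3, 0.675 for 1 and 4, 0.514 for 2 and 4 and 0.590 for 3 and 4, and the cause was not tested. No paired analysis was run, since there is 1 group. The labels do not say what the shared first part of the codes stands for. Whether the libraries are independent of each other is therefore not known. Replicate 4 limits the depth, since 3 counts are 1.17 CPM in it.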

Other observations

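Lists written after the data were seen gave more on genes outside the ovary lists. Of 22 striated muscle genes, Ttn and Neb led the sums of 21337, 3155, 1632 and 13771 CPM, and Ttn alone held 73.4% of the mean. The thin filament actin gene Acta1 had 0.809, 0.490, 1.29 and 1.17 CPM and the embryonic myosin gene Myh3 at most 1.62 CPM, and the muscle determination genes Myod1 and Myog had no count. Actn3, the actinin of fast muscle fibres, was the most abundant after them, with 37.1, 1.35, 5.26 and 46.5 CPM, and was likewise high in replicates 1 and 4. Myeloid granule genes, of neutrophils and their precursors, summed to 16.8, 1369, 1251 and 53.5 CPM. S100a9, a calcium-binding protein of neutrophils, had 4.63, 312, 373 and 5.86 CPM, and Mpo, the myeloperoxidase gene, 0.662, 411, 240.3 and 1.56 CPM. They were high in the libraries in which the erythroid genes were high.

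The X chromosome held 3.91, 2.90, 3.02 and 3.65% of the counts outside rRNA, and the ratio of the median CPM per kilobase of X-linked to that of autosomal genes with at least 1 CPM was 0.994, 0.890, 1.02 and 1.13. Chromosome 9 held 9.95, 6.07, 11.4 and 6.49%. These shares include Uqcrc1, which alone had 40903, 471, 55756 and 1282 CPM, so their order is not a result separate from that gene.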
